A study of Rattus norvegicus with 12 samples.

Results

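The genes of vesicle transport between the endoplasmic reticulum (ER) and the Golgi, together with the SNARE proteins and tethers that share their names, were followed in rat oligodendroglial cells that express p25alpha. Members were the probe sets (groups of array probes for one transcript) whose gene symbol begins with the name of a COPI, COPII, Sec61, Arf regulator, Tmed, Lman, Stx, Vamp, Gosr, Golga, Trappc or Cog gene, or is Arf1 to Arf6, Sar1a, Sar1b, Bet1, Ykt6 or Pld1. This gave 81 of the 13265 gene symbols among the 31096 probe sets of the array. For 76 of these genes, 121 probe sets were called present on at least 2 of 12 arrays and were tested, while 20 further probe sets of the 81 genes were not. Thus 85.8% of the members were tested, against 61.9% of all probe sets. Among the members, 99 were called present on all 12 arrays, 22 on 2 to 11, 3 on 1 and 17 on none. No probe set of Copz2, Tmed6, Stx1b2, Stx3 or Stxbp2 passed this filter.

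The rule was wider than ER to Golgi transport. In the deposited annotation 24 of the 81 genes carry the term for ER to Golgi vesicle-mediated transport and 43 carry a Golgi component term. The symbol rule also takes in the Sec61 translocon, through which proteins enter the ER before any vesicle forms. It takes in SNAREs of endosomes and the plasma membrane (such as Stx1a, Stx4a, Stx7, Vamp2 and Vamp8) and syntaxin-binding proteins such as Stxbp3 and Stxbp5. These are described as groups of their own.

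OLN cells are a rat oligodendroglial line, and all cells of the study stably expressed alpha-synuclein. They received either an empty vector (mock) or p25alpha in the plasmid pcDNA3.1, with Fugene-6 as the transfection reagent, and RNA was taken at 8, 12 or 16 h. Each of the 6 groups was measured once in each of 2 experiments, which gave 12 Affymetrix arrays. No group lacks alpha-synuclein, the labels do not say what share of the cells took up a plasmid or whether the stable line is 1 clone, and they do not say whether the experiments used separate cultures, and any p-value therefore reflects only how far these arrays scatter. No probe set carried the symbol of p25alpha (Tppp), so its level was not analysed here. In bulk RNA of this kind, fewer cells of a type and less RNA per cell cannot be told apart.

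Between 49.3% and 55.2% of probe sets were called present per array. Of 11 oligodendrocyte lineage markers, 8 were present on all 12 arrays (among them Cspg4, Cnp, Mog, Olig1, Nkx2-2, Pdgfra and Sox10), whereas Olig2 was present on none. Of 5 microglia markers, Aif1, Cd68, Itgam and Ptprc were present on no array, and 1 was present on at least 2. No neuron marker of 5 was present on all 12 arrays, but all 5 were on at least 2, and the astrocyte markers S100b and Gfap and the fibroblast marker Col1a1 were present throughout. The summed signal of the oligodendrocyte lineage markers was 4252 to 5734 on mock arrays and 3838 to 5776 on p25alpha arrays, that of the neuron markers 79.2 to 302.4 and 134.4 to 277.7, and that of the microglia markers 41.3 to 86.9 and 28.1 to 80.4. For the astrocyte markers, of which Slc1a2 was present on no array, the sums were 1750.0 to 3180.0 and 1786 to 3015, and for the fibroblast markers, of which Dcn was present on none, 316.7 to 491.3 and 251.1 to 495.7.

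Newly made secretory and membrane proteins enter the ER through the Sec61 channel, gather at exit sites and leave in vesicles coated by COPII, whose assembly the GTPase Sar1 starts. COPI, which is recruited by Arf GTPases, coats the vesicles that return from the Golgi to the ER and that move within the Golgi. Golgins and multisubunit tethers capture a vesicle, and a bundle of SNAREs, one kind from the vesicle and its partners from the target, fuses the membranes. In oligodendrocytes this route carries the membrane proteins and lipids of myelin, and in yeast an excess of alpha-synuclein slows ER to Golgi traffic. p25alpha, also called TPPP, is a tubulin-binding protein of oligodendrocytes.

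Promoter sequence is shown for members of 3 steps of the route (the COPI coat, an Arf GTPase and a Golgi SNARE), because a short motif of the ATF6 and XBP1 type recurred there. Sequences are RefSeq's for GRCr8, 250 bases before to 50 after the annotated start, and 70 of 80 current member symbols matched. Capitals mark TGACGTG or its reverse complement.
Copa: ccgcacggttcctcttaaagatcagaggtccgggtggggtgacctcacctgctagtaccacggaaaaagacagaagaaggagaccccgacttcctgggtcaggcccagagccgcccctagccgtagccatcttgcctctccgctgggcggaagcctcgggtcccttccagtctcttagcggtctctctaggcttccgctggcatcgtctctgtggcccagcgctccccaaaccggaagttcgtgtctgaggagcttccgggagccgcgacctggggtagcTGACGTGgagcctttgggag
Copb1: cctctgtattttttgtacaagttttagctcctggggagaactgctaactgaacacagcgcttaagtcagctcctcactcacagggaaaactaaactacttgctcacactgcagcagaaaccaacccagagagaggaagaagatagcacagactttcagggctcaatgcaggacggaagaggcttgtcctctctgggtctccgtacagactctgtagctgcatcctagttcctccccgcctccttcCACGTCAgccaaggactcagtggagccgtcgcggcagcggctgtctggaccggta
Copb2: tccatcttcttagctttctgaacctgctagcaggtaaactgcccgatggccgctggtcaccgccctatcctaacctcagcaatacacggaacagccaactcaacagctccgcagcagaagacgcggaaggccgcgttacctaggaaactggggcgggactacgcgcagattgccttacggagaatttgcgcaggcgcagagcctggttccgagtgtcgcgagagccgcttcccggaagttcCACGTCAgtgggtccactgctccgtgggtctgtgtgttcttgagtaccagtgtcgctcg
Arf4: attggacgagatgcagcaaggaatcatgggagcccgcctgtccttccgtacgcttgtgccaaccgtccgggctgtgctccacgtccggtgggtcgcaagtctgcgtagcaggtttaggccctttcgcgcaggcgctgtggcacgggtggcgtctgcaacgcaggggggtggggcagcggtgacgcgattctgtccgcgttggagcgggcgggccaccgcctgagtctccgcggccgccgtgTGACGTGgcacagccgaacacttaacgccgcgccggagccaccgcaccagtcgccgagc
Stx5: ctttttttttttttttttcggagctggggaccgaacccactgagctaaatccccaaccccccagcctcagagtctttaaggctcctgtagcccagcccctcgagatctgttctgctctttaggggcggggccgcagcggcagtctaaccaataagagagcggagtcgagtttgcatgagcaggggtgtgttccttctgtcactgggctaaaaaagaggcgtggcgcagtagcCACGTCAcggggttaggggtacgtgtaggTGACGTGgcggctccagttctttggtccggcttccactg
The stretches lie at chr13:87078618-87078917, plus strand for Copa, chr1:177872791-177873090, minus strand for Copb1, chr8:108040437-108040736, plus strand for Copb2, chr16:1903186-1903485, plus strand for Arf4 and chr1:215066282-215066581, plus strand for Stx5 (Stx5a in the files). The match begins 9 bases before the start in Arf4 and Copb2, 5 bases before it in Copb1 and 30 bases after it in Copa, and Stx5 holds a match on each strand. TGACGTG occurred on either strand in 10 of 70 member promoters (14.3%), against 2.72% of the 7109 genes with a tested probe set and 2.02% of all 27457. The other 5 were those of Arf1, Golga1, Sec23a, Stx18 and Vamp2, so that 3 of 7 COPI genes had it and none of 10 cargo receptor genes.

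Of 8 motifs searched on both strands, TGACGTG was singled out after the shares were seen. The motifs that overlap it were also commoner in the members: CCACGTCA was in 11.4% of member promoters, 0.999% of those with a tested probe set and 0.681% of all, GCCACGT in 21.4%, 3.85% and 2.55%, TGACGT in 27.1%, 12.5% and 8.68%, and CCACG in 64.3%, 49.1% and 34.1%. TGACGTCA, the cyclic AMP response element, was in 2.86% of member promoters, 3.35% and 2.0%. The longer ERSE and ERSE-II motifs were in none of the 70 and in 0.155% and 0.127% of the promoters of genes with a tested probe set. A match is a description of these letters, and no test was made of it. Of the 10 genes with TGACGTG, Copb2 and Stx18 read lower with p25alpha in 6 of 6 pairs (log2 differences of -0.29 and -0.28). Arf4 gave opposite signs on its 2 probe sets (0.12 on 1398758_at and -0.21 on 1381498_at), and Copa, Copb1, Sec23a and Vamp2 differed by -0.08, -0.03, -0.12 and 0.01. The probe sets of Arf1 lay between -0.06 and -0.01 and those of Stx5a between -0.24 and 0.11, and the value of Golga1 is not given.

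The comparison that the design implies first is p25alpha against mock. No member passed the test in either of the fits described first below, though some passed under other settings, and most differed little. Over the 3 times, the difference per member is the mean of p25alpha minus mock on the log2 signal scale, and its median over the 121 members was -0.011, against 0.013 over all 19248 tested probe sets. It was positive for 58 of 121 members, against 52.7% of all, and under 0.25 in size for 99 members, with 4 at 0.5 or more. The median absolute difference was 0.0951 for members and 0.136 for all. By role, the median ran from -0.13 for the COPII coat to 0.07 for the syntaxins and VAMPs of other compartments, with -0.08 for the translocon and for golgins and tethers, -0.04 for cargo receptors, -0.03 for COPI, -0.01 for Arf GTPases and regulators, 0.02 for syntaxin-binding proteins and 0.04 for ER and Golgi SNAREs.

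**Figure D1:**
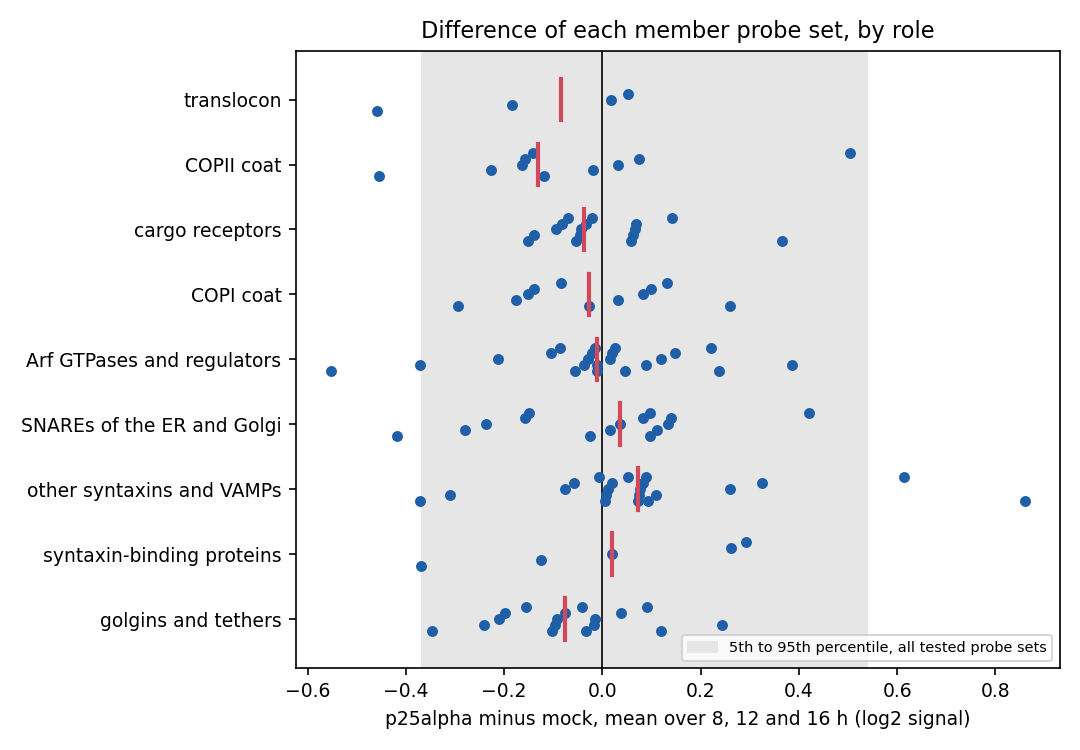
Difference between p25alpha and mock cells for each of the 121 tested member probe sets (points, mean over 3 times, log2 signal), grouped by role, with the median of each role as a red bar. The grey band spans the 5th to the 95th percentile of all tested probe sets (-0.37 to 0.54) and holds 112 of the 121 members.

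Called means a Benjamini-Hochberg adjusted p under 0.05 over all 19248 probe sets in limma. No member was called in the fit of 6 group means, in which 0.0208% of all probe sets were called, and the smallest adjusted p among members was 0.723 (Stx11). The SE of a member's difference had a median of 0.19 in this fit and 0.0975 in the paired fit below. At an unadjusted p under 0.05, 7 members passed (5.79%; background 4.13%). With the experiment as a block, so that each p25alpha array was set against the mock array of its own experiment (called paired from here on, and the source of every SE given), again no member was called, against 0.239% of all probe sets. At an unadjusted p under 0.05, 20 members passed (16.5%; background 14.0%), 8 higher and 12 lower. The difference had the same sign in 6 of 6 pairs for 15 members. Of these, 7 were higher (5.79%; background 5.99%) and 8 lower (6.61%; background 5.01%).

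That count of 0 did not hold under 3 other settings of the paired fit, and the cause was not tested. With a variance trend and robust estimation, 8 members passed (6.61%; background 2.18%): Arf2, Gosr2 and Stx11 were higher, and Copb2, Pld1, Sec22l1, Sec23ip and Sec61a1 lower. The same 8 passed when 50 was added to each signal before log2 (6.61%; background 2.42%). When only the 9624 probe sets above the median signal were tested, 5 of 83 members passed (6.02%; background 3.71%), namely Gosr2, Sec22l1, Sec23ip, Sec61a1 and Tmed5. Without the block, none of these settings called a member. The interval of the difference set a limit where no call was made: the paired 95% interval lay within 1 log2 unit of 0 for 116 of 121 members and within 0.5 for 90, while without the block it lay within 1 for 105.

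**Figure D2:**
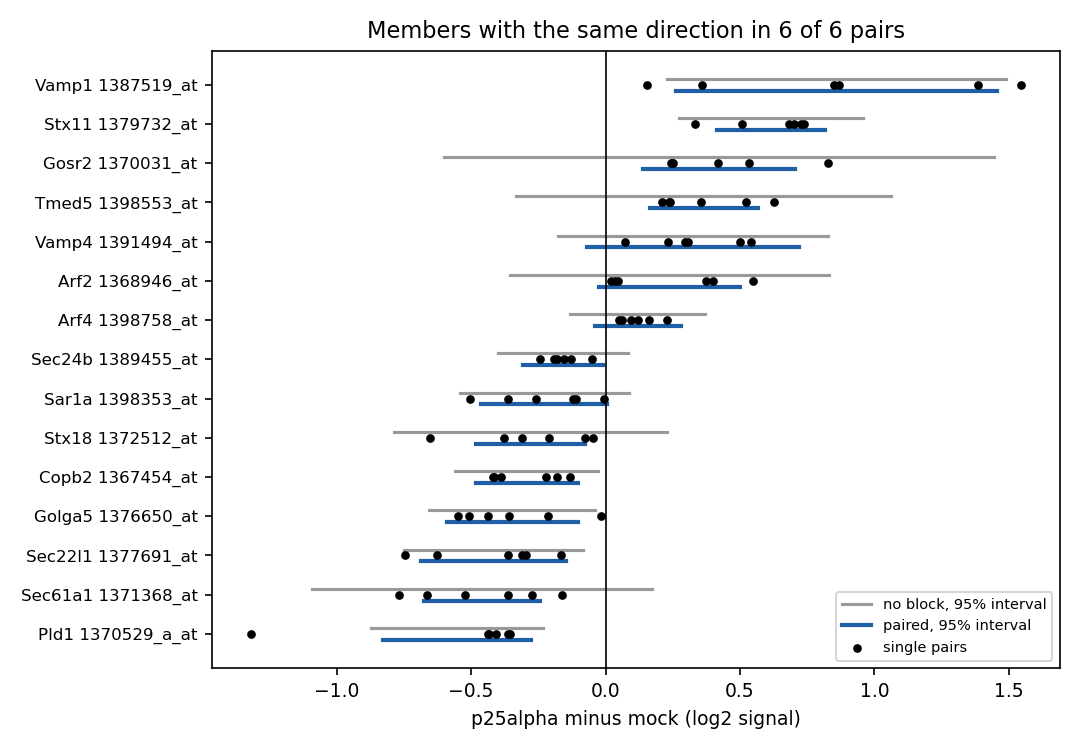
The 15 member probe sets whose difference had the same sign in 6 of 6 pairs of arrays. Black points are the differences of single pairs (p25alpha minus mock, log2 signal), blue lines the paired 95% interval and grey lines the interval without the block. The paired interval of Stx11 runs from 0.41 to 0.82, and those of Sar1a, Arf2, Arf4 and Vamp4 reach past 0.

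Sec61a1, the channel-forming subunit of the translocon, read lower with p25alpha on one of its probe sets. The mock signals of 1371368_at at 8, 12 and 16 h were 1089, 1144 and 1227 in experiment 1 and 661, 676 and 739 in experiment 2. On the p25alpha arrays they were 973, 795 and 721 in experiment 1 and 547, 426 and 574 in experiment 2. Every p25alpha array lay below the mock array of its own experiment and time, while the groups overlapped because experiment 2 read lower throughout. The log2 difference was -0.46 ± 0.09 (SE, n = 6 pairs), or 0.727-fold, with a 95% interval of -0.68 to -0.24 on the log2 scale and a paired adjusted p of 0.128. It was -0.22 at 8 h, -0.59 at 12 h and -0.57 at 16 h. The log2 ratios in the authors' deposited table were smaller and did not all have this sign. In experiments 1 and 2 they were 0.2 and -0.2 at 8 h, -0.4 and -0.3 at 12 h, and -0.1 and 0.0 at 16 h. The adjusted p was 0.00353 with trend and robust estimation, 0.00451 with the offset and 0.0122 above the median signal. The other probe set, 1382615_at, differed by -0.18 ± 0.11 (SE, n = 6 pairs) and was lower in 5 of 6 pairs. The remaining translocon members stayed near 0, with 0.02 for Sec61a2, a paralogue of the channel subunit, and 0.05 for Sec61b, an accessory subunit whose signals lay between 1501 and 1907.

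In the COPII group, 7 of 10 probe sets read lower and 3 higher. Sec23ip, which binds the coat protein Sec23 at ER exit sites, had mock signals of 204, 169 and 161 in experiment 1 and 241, 221 and 248 in experiment 2, in the order 8, 12 and 16 h. The p25alpha arrays read 127, 125 and 99.9 in experiment 1 and 214, 221 and 147 in experiment 2. The p25alpha array was lower in 5 of 6 pairs, and the exception at 12 h in experiment 2 was level (221 and 221.3). The difference was -0.45 ± 0.10 (SE, n = 6 pairs), paired adjusted p 0.14, and -0.43 at 8 h, -0.21 at 12 h and -0.72 at 16 h. In the 3 settings that called it, the adjusted p was 0.0217, 0.0155 and 0.0151.

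Sar1a, the GTPase that starts COPII assembly, gave 2 answers. The mock signals of 1398353_at were 1361, 1216 and 1387 in experiment 1 and 1113, 1064 and 1007 in experiment 2. In p25alpha cells the values were 959, 1016 and 1079 in experiment 1 and 1108, 978 and 933 in experiment 2. That is lower in 6 of 6 pairs, with a log2 difference of -0.23 ± 0.10 (SE, n = 6 pairs), yet the pairs of experiment 2 differed by only -0.01, -0.12 and -0.11. The other, 1367470_at, differed by 0.03, and the close relative Sar1b by 0.08. Sec24b, which selects cargo, read 171, 194 and 174 in experiment 1 and 185, 208 and 186 in experiment 2 in mock cells on 1389455_at. With p25alpha it read 165, 174 and 152 in experiment 1 and 169, 176 and 164 in experiment 2, which is slightly lower in every pair. The difference was -0.16 ± 0.06 (SE, n = 6 pairs), with a paired adjusted p of 0.331. Its second probe set differed by -0.02. Sec23a and Sec23b, the inner coat that activates the GTPase, differed by -0.12 and -0.14. The outer coat gene Sec31l1 (now Sec31a) had one probe set at -0.16 and a dim one, present on 2 arrays, at 0.50 with an SE of 0.53, which turned to -0.13 without the p25alpha array at 8 h of experiment 2.

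Cargo receptors of the Tmed (p24) and Lman (lectin) families differed little, with 6 of 16 probe sets higher and 10 lower. The exception was one probe set of Tmed5, a p24 protein that shuttles between ER and Golgi. The mock signals of 1398553_at were 121, 167 and 169 in experiment 1 and 80.7, 97.5 and 89.8 in experiment 2. On p25alpha arrays they were 188, 214 and 200.2 in experiment 1 and 93.3, 140.0 and 106 in experiment 2. All 6 p25alpha arrays were above their partner, but the experiments did not overlap in either condition. The difference was 0.37 ± 0.09 (SE, n = 6 pairs), paired adjusted p 0.165, and 0.0289 among probe sets above the median signal. The other 2 probe sets of Tmed5 differed by 0.07 and 0.06. Tmed10, Tmed2 and Tmed9, further p24 proteins, differed by 0.07, -0.10 and -0.07 on their 1398796_at, 1389940_at and 1388369_at sets. Lman1, the receptor known as ERGIC-53, differed by -0.14 and Lman2l by -0.15.

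Of the COPI coat, 5 of 11 probe sets read higher and 6 lower. Copb2, the coatomer subunit that binds dilysine retrieval signals, had mock signals of 1865, 1721 and 1879 in experiment 1 and 1584, 1886 and 1868 in experiment 2. With p25alpha its signals were 1645, 1570.2 and 1435 in experiment 1 and 1359.6, 1415 and 1397 in experiment 2. It was lower in 6 of 6 pairs, and the groups overlapped by 1 array, the mock array at 8 h in experiment 2. The difference was small, -0.29 ± 0.08 (SE, n = 6 pairs), and it was -0.20 at 8 h, -0.27 at 12 h and -0.40 at 16 h. The paired adjusted p was 0.209, and 0.0292 and 0.0439 with trend and robust estimation and with the offset, while above the median signal it was 0.0602. No other COPI gene did likewise: Copa differed by -0.08, Copb1 by -0.03, Cope by 0.08, the 3 probe sets of Copg by -0.18 to -0.14 and the 4 of Copz1 by 0.03 to 0.26. Copb2, Copa and Copb1, whose promoters all hold TGACGTG, thus differed in the size of their change, and that difference between genes was not tested.

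Pld1, phospholipase D, which makes phosphatidic acid on Golgi and endosomal membranes and is activated by Arf, read lower on one of 4 probe sets. Mock signals of 1370529_a_at were 125, 103 and 109 in experiment 1 and 127, 110.4 and 164 in experiment 2. Cells with p25alpha gave 97, 80.8 and 80.4 in experiment 1 and 94.1, 83.2 and 65.7 in experiment 2. All 6 p25alpha signals lay below all 6 mock signals. The widest gap was in experiment 2 at 16 h, 164 against 65.7. The difference was -0.55 ± 0.12 (SE, n = 6 pairs), paired adjusted p 0.139, 0.0239 with trend and robust estimation and 0.0144 with the offset, and it stayed negative when any single array was left out. The 3 other Pld1 probe sets differed by 0.02, 0.15 and 0.09, so the gene as a whole gave no single direction.

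Arf2, a class I Arf like Arf1, read higher on both probe sets. On 1388813_at, mock signals were close together, at 565, 580.3 and 598 in experiment 1 and 558, 569 and 591 in experiment 2. With p25alpha they were 526, 893 and 932 in experiment 1 and 759.9, 761 and 722 in experiment 2. That is higher in 5 of 6 pairs, the exception being 8 h in experiment 1. The difference was 0.39 ± 0.12 (SE, n = 6 pairs), with 0.17 at 8 h, 0.52 at 12 h and 0.46 at 16 h. The paired adjusted p was 0.251, and 0.0419 and 0.0405 in the fits with trend and with the offset. The authors' deposited table gave this probe set an increase call in 3 of 6 pairs. On 1368946_at the difference was 0.24 ± 0.11 (SE, n = 6 pairs), higher in 6 of 6 pairs. Arf4, which acts with Arf1 in COPI recruitment, was higher in 6 of 6 pairs on 1398758_at, but by only 0.12 ± 0.07 (SE, n = 6 pairs). Its other probe set, 1381498_at, present on 6 arrays, differed by -0.21 ± 0.17 (SE, n = 6 pairs), the opposite sign. The 3 probe sets of Arf1 differed by -0.06 to -0.01, those of Arf3 by -0.04 to 0.03 and Arf5 by -0.01. Arf6, which acts at the plasma membrane, differed by 0.22 and 0.02. Arfgap1, which ends the Arf1 cycle, differed by -0.37 to -0.02 on 3 probe sets, and the exchange factors Arfgef1 and Arfgef2 by -0.10 and 0.05.

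**Figure D3:**
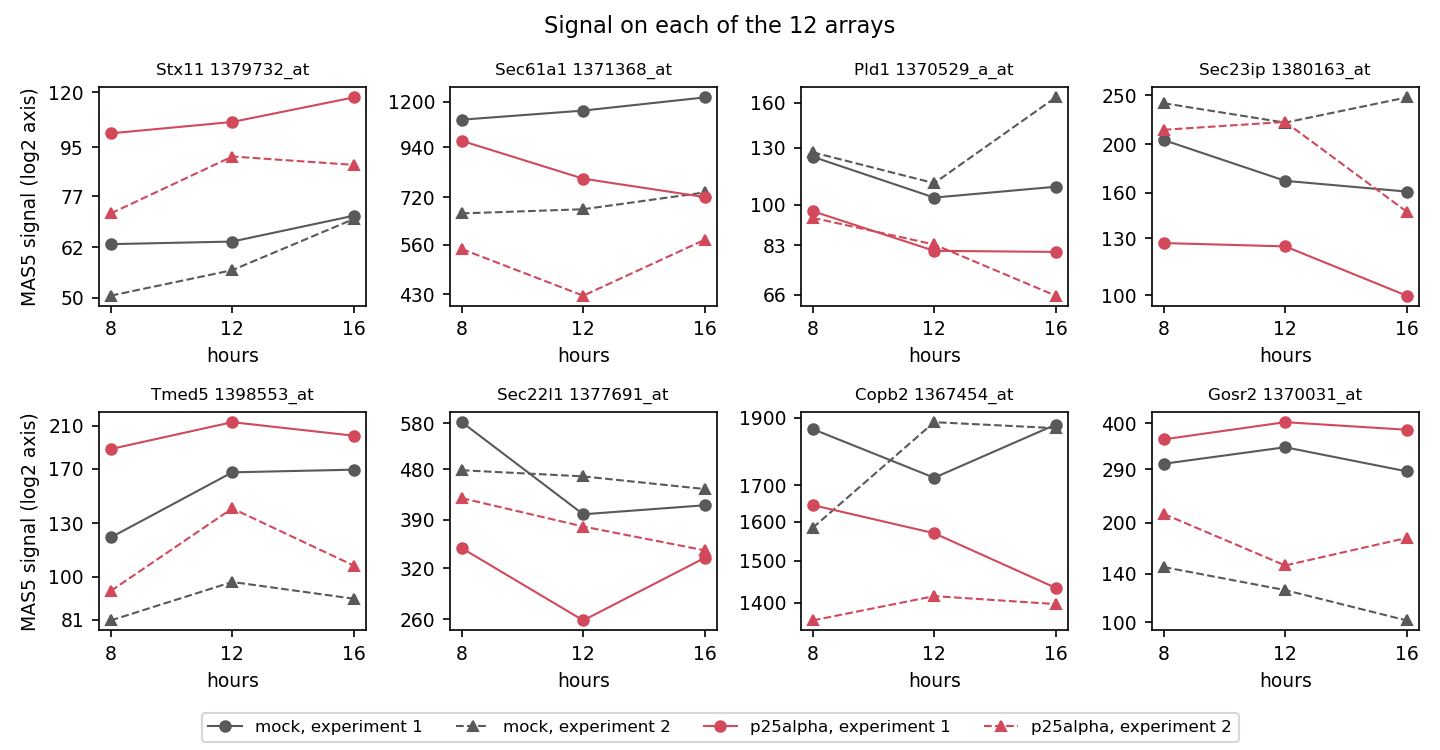
MAS5 signal (log2 axis that does not start at 0) on each of the 12 arrays for 8 member probe sets, by hour after transfection. Grey is mock and red is p25alpha; circles with solid lines are experiment 1 and triangles with dashed lines experiment 2, and lines join arrays of the same experiment and condition for reading only. For Stx11 all red points lie above all grey ones and for Pld1 all lie below, whereas for Gosr2 and Tmed5 the 2 experiments are farther apart than the conditions.

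Among the SNAREs of the ER and Golgi, 9 of 15 probe sets read higher and 6 lower, and 2 partners of the same fusion complex differed in opposite directions. Gosr2 (membrin), a Golgi SNARE of ER to Golgi fusion, had mock signals on 1370031_at of 302, 338 and 286 in experiment 1 and 147, 125 and 101 in experiment 2. The p25alpha arrays read 357, 403 and 382 in experiment 1 and 213, 148 and 179.8 in experiment 2. Each p25alpha array exceeded its partner, and experiment 2 read far below experiment 1 in both conditions. The difference was 0.42 ± 0.12 (SE, n = 6 pairs), paired adjusted p 0.217, and 0.0442, 0.0348 and 0.043 in the 3 settings that called it. The other 2 Gosr2 probe sets differed by 0.10 and 0.08.

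Sec22l1 (now Sec22b), the vesicle SNARE of the same step, had mock signals of 582, 399 and 414 in experiment 1 and 478, 466 and 443 in experiment 2. In p25alpha cells the values were 348, 258 and 334 in experiment 1 and 426, 379.7 and 344 in experiment 2. It was lower in 6 of 6 pairs, by log2 differences of -0.74 to -0.16, and the groups overlapped. The difference was -0.42 ± 0.11 (SE, n = 6 pairs), paired adjusted p 0.209, and 0.0271, 0.0243 and 0.0385 in those settings. Stx18, an ER SNARE that receives vesicles coming back from the Golgi, had mock signals of 345, 296 and 359 in experiment 1 and 224, 216 and 206 in experiment 2. On p25alpha arrays they were 265, 281 and 228 in experiment 1 and 217, 186 and 166 in experiment 2. Its difference of -0.28 ± 0.09 (SE, n = 6 pairs) was also negative in 6 of 6 pairs, with a paired adjusted p of 0.242, and no setting called it. Bet1, a further partner of Gosr2, differed by -0.02 and 0.13, and Stx5a by 0.02, 0.11 and -0.24 on its 3 probe sets. Gosr1 differed by -0.15 and 0.14, Sec22l2 (now Sec22a) by 0.10 and Ykt6, a SNARE without a transmembrane stretch, by -0.16 and 0.04.

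Syntaxins and VAMPs of other compartments read higher in 16 of 21 probe sets. The member nearest to a call was Stx11, a syntaxin of the endosomal and secretory system that is known in humans from cytotoxic lymphocytes, where its loss impairs granule release. Its mock signals were 62.8, 63.5 and 70.9 in experiment 1 and 50.4, 56.2 and 69.9 in experiment 2, and it was present on all 12 arrays. Cells with p25alpha gave 101, 106 and 118 in experiment 1 and 71.6, 91.3 and 88.1 in experiment 2. The lowest p25alpha array, 71.6, was above the highest mock array, 70.9, so the groups did not overlap, and experiment 1 read somewhat above experiment 2. The difference was 0.61 ± 0.08 (SE, n = 6 pairs), or 1.53-fold, with a 95% interval of 0.41 to 0.82 on the log2 scale, and it was 0.59 at 8 h, 0.72 at 12 h and 0.53 at 16 h. The paired adjusted p was 0.0599, and 0.0116 with trend and robust estimation and 0.00625 with the offset. Above the median signal it was not tested. In the authors' deposited table it carried an increase call in 4 of 6 pairs, 1 of them marginal.

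Stx11 was the 1 member of 121 whose 6 p25alpha signals all lay above the 6 mock signals (background 0.431%), and Pld1 and Golga5 were the 2 for which all lay below (background 0.265%). Vamp1, a synaptobrevin of synaptic vesicles, had the widest difference of any member, on a dim probe set (1387519_at, present on 6 arrays). Its mock signals were 11.9, 9.1 and 15.6 in experiment 1 and 12.6, 15.3 and 12.4 in experiment 2. With p25alpha they were 21.7, 16.4 and 20 in experiment 1 and 36.8, 40 and 13.8 in experiment 2. The difference of 0.86 ± 0.25 (SE, n = 6 pairs) was positive in 6 of 6 pairs, and it was 1.21 at 8 h, 1.12 at 12 h and 0.26 at 16 h, and the second Vamp1 probe set gave -0.01. Vamp4, a SNARE of the trans-Golgi network, was higher in 6 of 6 pairs on 1391494_at with 0.32 ± 0.17 (SE, n = 6 pairs) and a paired adjusted p of 0.436, and by 0.08 on the other. Stx16, its partner in transport from endosomes to that network, differed by 0.26. The widely used Vamp3 differed by 0.07. Stx4a, Stx6, Stx7, Stx8, Stx17, Vamp2, Vamp5 and Vamp8 lay between -0.08 and 0.11. Stx12 differed by 0.02 and -0.37, and Stx1a, a syntaxin of nerve terminals present on 2 arrays, by -0.31.

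Of the proteins that bind syntaxins, Stxbp3 (Munc18c) differed by -0.13 and Stxbp5 (tomosyn), which holds syntaxin and keeps VAMPs out, by -0.37 ± 0.15 (SE, n = 6 pairs).

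Golgins and tethers read lower in 13 of 17 probe sets. Golga5 (golgin-84), a coiled-coil tether for vesicles within the Golgi, had mock signals of 308, 312 and 299.7 in experiment 1 and 283, 268 and 274 in experiment 2. The p25alpha arrays read 265, 213 and 234 in experiment 1 and 199, 266 and 202 in experiment 2. The highest p25alpha array, 265.5, lay just under the lowest mock array, 268, and the pair at 12 h in experiment 2 was nearly level. The difference was -0.35 ± 0.10 (SE, n = 6 pairs), with -0.36 at 8 h, -0.28 at 12 h and -0.40 at 16 h and a paired adjusted p of 0.235, and in no setting did that p fall below 0.0566. Golga7, a palmitoylated Golgi protein that partners a palmitoyltransferase, went the other way. Its mock signals were 823, 889 and 816 in experiment 1 and 692, 816 and 669 in experiment 2. In p25alpha cells the values were 899.6, 1034 and 1034 in experiment 1 and 894, 809 and 894 in experiment 2. It was higher in 5 of 6 pairs, with a difference of 0.24 ± 0.07 (SE, n = 6 pairs) and a paired adjusted p of 0.239. Golga2 (GM130), the tether of the cis-Golgi, differed by -0.10. Of the COG complex, which tethers vesicles that recycle Golgi enzymes, Cog1, Cog3, Cog4, Cog6, Cog7 and Cog8 lay between -0.24 and 0.12, and of the TRAPP complex Trappc1, Trappc3, Trappc4 and Trappc6b between -0.09 and 0.09.

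Probe sets of the same gene often disagreed. In 14 of 33 genes with more than 1 tested probe set, the sets differed in sign, the median range within a gene was 0.203, and the widest was 0.867 for Vamp1. Of the genes described above, Sec61a1, Gosr2, Tmed5 and Arf2 kept the same sign on every probe set, with a smaller difference on the others, while Pld1, Vamp1, Sar1a and Arf4 did not. Sec23ip, Copb2, Sec22l1, Stx11 and Golga5 had 1 tested probe set each.

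**Figure D4:**
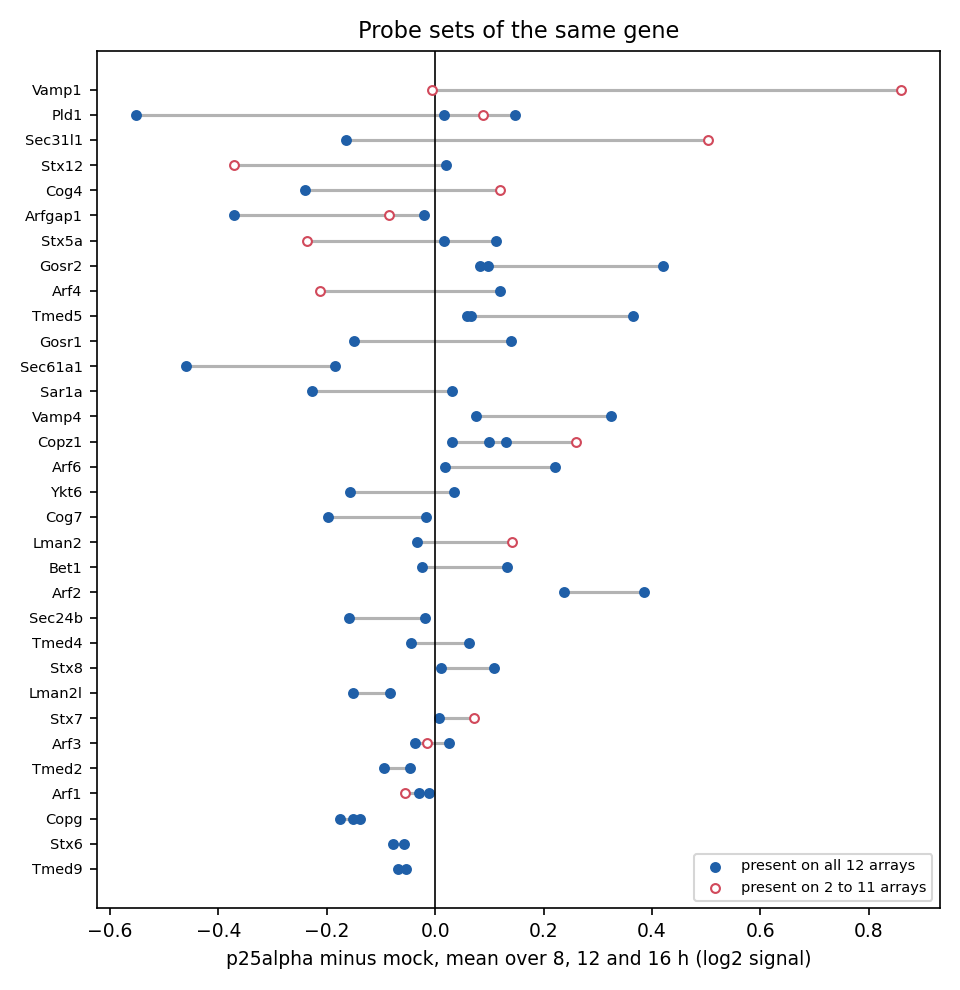
Differences between p25alpha and mock cells (mean over 3 times, log2 signal) of the probe sets of 32 member genes with more than 1 tested set, ordered by their range. Filled points were called present on all 12 arrays and open points on 2 to 11; the widest lines, Vamp1 at the top, end in an open point or, for Pld1, in a filled one.

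At the single times, no member was called at 8, 12 or 16 h in either fit. Of all probe sets, the fit without the block called 0.0%, 0.0104% and 0.0% at these times, and the paired fit 0.0%, 0.0571% and 0.0571%. At an unadjusted p under 0.05 without the block, 3 members passed at 8 h (background 1.09%), 3 at 12 h (background 2.47%) and 1 at 16 h (background 2.41%). In the paired fit these were 8 members at 8 h (background 4.88%), 11 at 12 h (background 9.33%) and 12 at 16 h (background 8.66%). The median member difference was 0.0013 at 8 h, -0.031 at 12 h and 0.0005 at 16 h.

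Stx11 was among the 3 higher members with the smallest p at each time, with 0.59 at 8 h, 0.72 at 12 h and 0.53 at 16 h. Beside it, Stx5a on 1367878_at (0.49 ± 0.13, paired adjusted p 0.977) and Pld1 on 1370531_a_at (0.56) led at 8 h, while Stx5a on 1380639_at (-0.98), Stx1a (-1.66, present on 2 arrays) and Sec23ip (-0.43) were lower. At 12 h, Arf1 on the dim 1395241_at (0.76) and Stx16 (0.53) were higher, and Arfgap1 on 1389492_at (-0.76), Sec61a1 (-0.59) and Cog8 (-0.45) lower. That Arf1 probe set was called present on 4 mock arrays and on no p25alpha array. At 16 h, Gosr2 (0.62) and Golga7 (0.38) were higher, and Pld1 on 1370529_a_at (-0.88 ± 0.20, paired adjusted p 0.337), Sec23ip (-0.72) and Sec61a1 (-0.57) lower. Whether the difference depends on time was tested with a moderated F-test, which called no member and 0.0% of all probe sets in either fit. At an unadjusted p under 0.05 it passed 1 member without the block (background 0.998%) and 7 in the paired fit (background 3.96%). The smallest p values were those of Stx5a on 1367878_at (0.00491), Arf1 on 1395241_at (0.00865) and Stx5a on 1380639_at (0.0195), with an adjusted p of 0.999 for each.

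In mock cells alone, no member was called at 12 h against 8 h (background 0.0% without the block and 0.0052% paired) or at 16 h against 8 h (0.0% in both). At an unadjusted p under 0.05, the counts without the block were 0 (background 1.31%) and 1 (background 1.76%), and in the paired fit 6 (background 5.21%) and 10 (background 7.4%). At 16 h against 8 h, Pld1 on 1370531_a_at (0.72), Stx5a on 1367878_at (0.57) and Tmed3 (0.31) were the higher members with the smallest p. Arf3 on 1387447_at (-0.91), Sec61a1 on 1382615_at (-0.55) and Arfgef2 (-0.49) were the lower ones. At 12 h against 8 h, Pld1 on 1370531_a_at and 1370530_a_at (0.54 and 0.29) and Tmed5 (0.37) were higher, and Arf3 (-0.76), Tmed2 (-0.41) and Tmed4 (-0.37) lower. These comparisons share the mock arrays at 8 h, and those at each time share mock arrays with p25alpha against mock.

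The members differed far more between the 2 experiments than with p25alpha. In the paired fit 66 of 121 members were called between experiments (54.5%; background 51.0%), with 23 higher in experiment 2 (background 29.4%) and 43 lower (background 21.6%). The median difference was -0.125 for members and 0.116 for all tested probe sets, and the median absolute difference 0.375 and 0.413. For 101 members the experiments differed by more than p25alpha and mock did. This was not counted over all tested probe sets, whose median absolute difference was likewise larger between experiments (0.413) than between p25alpha and mock (0.136). Ykt6 on 1387836_at (-1.27, adjusted p 0.000299), Gosr2 on 1370031_at (-1.21) and Stx5a on 1386853_s_at (-0.99) were among the lowest in experiment 2. Ykt6 read 252, 248 and 208 on the mock arrays of experiment 1 and 107, 115 and 66.8 on those of experiment 2. Arf4 on 1381498_at (1.37), Arf1 on 1395241_at (1.13), Stx7 on 1397565_at (1.03) and Pld1 on 1370531_a_at (0.94) had the widest positive differences among the members called. Sec31l1 on 1377087_at, at 1.25, was not called (adjusted p 0.087).

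Of the controls for RNA quality, beta-actin moved with the experiment and GAPDH hardly did. The 3′ over 5′ signal ratio of the beta-actin control was 2.14 to 3.12 on the arrays of experiment 1 and 4.65 to 7.05 on those of experiment 2, while that of GAPDH was 0.969 to 1.09 and 0.898 to 1.03. Their part in the differences between experiments was not tested. Probe sets of a gene also differed in sign between experiments in 16 of 33 genes, such as Arf1 (-0.35 to 1.13) and Sec31l1 (-0.38 to 1.25). The median difference between p25alpha and mock was -0.018 for members in experiment 1 and -0.0043 in experiment 2.

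**Figure D5:**
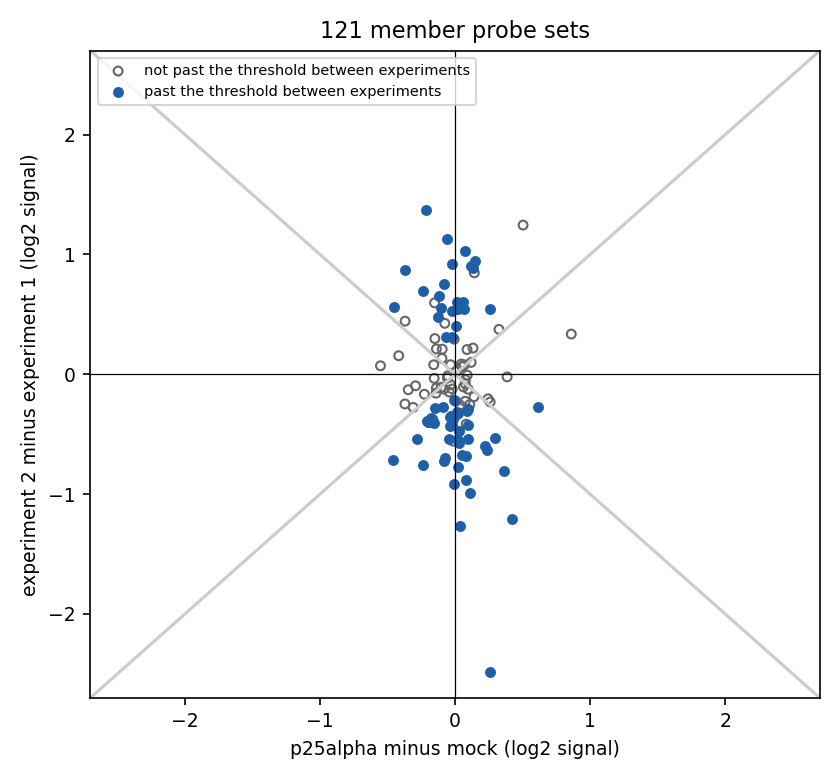
Each of the 121 member probe sets by its difference between p25alpha and mock (x axis, mean over 3 times) and between experiment 2 and experiment 1 (y axis), both in log2 signal. Filled points passed the adjusted threshold between experiments (66 members). The grey diagonals mark equal size, and 101 points lie in the sectors above and below, where the experiments differ more. That count was not made over all tested probe sets.

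Other genes of the route, taken from a list of 124 outside the members, were also without calls. Of 89 genes with 131 tested probe sets, none passed in either fit, and at an unadjusted p under 0.05 in the paired fit 4 probe sets were higher and 5 lower (6.87%; background 14.0%). In the paired fit, 1 of the 131 probe sets passed with trend and robust estimation (0.763%; background 2.18%) and 2 with the offset (1.53%; background 2.42%). Above the median signal, 2 of 96 passed (2.08%; background 3.71%). Vps45, a syntaxin-binding protein of the trans-Golgi network, differed by -0.35 ± 0.09 (paired adjusted p 0.195), and it passed with the offset (adjusted p 0.0474) and above the median signal (0.0411).

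Some other probe sets with a small p were present on fewer arrays. Among them were Golph3l on 1395291_at (-0.74, present on 5 arrays), Rint1 on 1380694_at (0.68, present on 2 mock arrays and no p25alpha array), Gbf1 on 1390611_at (0.69, present on 9) and Blzf1 on 1395098_at (0.31, present on 10). The better-detected probe sets of these 4 genes gave 0.08, 0.09, -0.24 and 0.07. Tram1 on 1390077_at (0.26, present on 11) and Preb (-0.18, present on 12) also had an unadjusted p under 0.05 in the paired fit. The brighter Tram1 probe set, 1371688_at, present on 12 arrays, had the opposite sign (-0.10) and was lower in 5 of 6 pairs. Rab1, the GTPase of ER to Golgi traffic, whose yeast counterpart relieves the block that alpha-synuclein causes there, differed by -0.04 and 0.12 on its 2 probe sets. Its values were looked at because of that background.

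Updating the old gene symbols through RefSeq would add 20 tested probe sets to the members, and 1 of them passed in the paired fit (background 0.239%). It was Arfgap3, a GTPase-activating protein for Arf1 at the Golgi that acts in COPI transport, listed in the files under LOC503165 and named here after its values were seen. Its mock signals were 448, 532 and 457 in experiment 1 and 480.1, 543 and 545 in experiment 2, at 8, 12 and 16 h. Cells with p25alpha gave 382, 283 and 324 and 353, 313 and 367. All 6 p25alpha signals lay below all 6 mock signals (background 0.265%), and the 2 experiments read alike. The log2 difference was -0.57 ± 0.07 (SE, n = 6 pairs), with a paired adjusted p of 0.0499 and 0.47 without the block. Arfgap2 differed by -0.07.

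The authors' deposited table also holds change calls, which compare 2 arrays at a time. Marginal calls are counted here with full ones, and member shares are over tested and untested probe sets. In experiment 1, increase calls were given to 1.42% of members at 8 h, 4.26% at 12 h and 1.42% at 16 h in the authors' deposited table, against 1.84%, 2.26% and 2.46% of the 31039 probe sets that are not controls. In experiment 2 these shares were 0.0%, 2.84% and 0.709%, against 0.892%, 2.71% and 1.41%. Decrease calls in experiment 1 of the authors' deposited table were given to 2.13%, 2.84% and 0.0% of members at 8, 12 and 16 h, against 2.13%, 3.02% and 1.63% of all. In experiment 2 they were given to 0.0%, 2.84% and 2.13%, against 0.235%, 1.83% and 1.14%. Member shares were thus above those of all probe sets for increases at 12 h in experiment 1 and for decreases at 12 and 16 h in experiment 2, on counts of 6, 4 and 3. For increases at 12 h in experiment 2 the shares were nearly equal, on a count of 4. The bases are not alike, because 85.8% of members and 61.9% of all probe sets passed the filter on present calls. Besides Stx11 and Arf2, Sec61a1 on 1371368_at had more than 1 call in a direction, with 2 decreases.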

How the data were processed

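RNA of 12 samples was hybridised to 1-colour Affymetrix rat arrays. The deposited values are MAS5 signals, an intensity scaled by the authors to a common trimmed mean (150.1 on each array), with a present call for each probe set. MAS5 is named per the submitters' processing notes, which give no version. The authors' deposited table also holds change calls and log2 ratios for single pairs of arrays. Here the deposited intensity was floored at 0.1 and put on the log2 scale. Probe sets with a present call on 2 or more of the 12 arrays entered the tests in limma 3.58.1 in R 4.3.3, in 1 fit of 6 group means, with Benjamini-Hochberg adjustment over 19248 probe sets. The alternatives were the experiment as a block, quantile or median scaling, other filters, an offset of 50, trend and robust estimation, and leaving out each array. The experiment number, which the labels give, paired the arrays: after subtracting each group's mean, arrays that share a number had correlations of 0.471 to 0.569 in the 15 pairs of groups. The number of arrays limits the precision.

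The members, role groups, pathway list and cell type markers were chosen with earlier results of these data known. Named are members with the smallest p in each direction among those with the same sign in every pair, those farthest from 0 and brightest in a role, and those leading the comparisons of times and experiments. The scripts were tested on simulated data. Some genes are not reported here.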

Additional observations from a re-analysis of the deposited data

Results flagged for a closer look

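For 12 member probe sets the difference between p25alpha and mock had one sign in both experiments at one time and the opposite sign in both at another. The share of all tested probe sets that did so was not counted, so this number has no background to be read against. Differences between times are log2 values, the later time minus the earlier. The moderated F-test over the 3 times gave an adjusted p of 0.999 for each of these probe sets in the paired fit, and the unadjusted p ran from 0.00491 to 0.793.

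Among SNAREs, Stx5a had a difference of -0.90 between 8 and 16 h on 1367878_at and of 1.30 between 8 and 12 h on 1380639_at. These intervals are not alike, but at 8 h p25alpha minus mock was 0.49 on 1367878_at and -0.98 on 1380639_at. Ykt6 on 1387836_at had a difference of 0.62 between 12 and 16 h. Stx16 had a difference of 0.63 between 8 and 12 h and by 0.46 between 8 and 16 h. Stx1a, present on 2 arrays, had a difference of 3.0 between 8 and 12 h and by -1.96 between 12 and 16 h. Stx7 on 1397565_at, present on 3 arrays, had a difference of 1.34 between 8 and 16 h and by 1.92 between 12 and 16 h.

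Among Arf genes and their regulators, Arf1 on 1395241_at had a difference of 1.26 between 8 and 12 h and of -1.19 between 12 and 16 h. It was present on 4 arrays, all of them mock. Pld1 on 1370531_a_at had a difference of -0.88 between 8 and 16 h, and Arfgef2 by 0.47. The remaining values were small or came from single comparisons: Sar1a on 1367470_at had a difference of -0.081 between 8 and 12 h and by 0.12 between 12 and 16 h, Tmed3 by -0.26 between 8 and 16 h, and Cog8 by 0.67 between 12 and 16 h.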

How the results depend on the processing

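The count of members called over all times was 0 in the fit without the block and in each alternative that also lacked it. With the experiment as a replicate block it was also 0, and the paired counts were 8 with trend and robust estimation, 8 with the offset of 50 and 5 with the filter at the median signal. With members also taken by updated symbol, an alternative chosen after seeing the data, the paired count was 1 (background 0.239%). The cause was not tested. Leaving out single arrays, with or without the block, gave 0. The median difference of members (-0.011) ran from -0.0419 to 0.024 when single arrays were left out, and it was positive without replicate 1 of the mock group at 8 h (0.0045), without replicate 1 of the mock group at 12 h (0.024) and with no filter (0.00606). The other counts of called members stayed at 0 or within 1.5 times, and the other medians stayed negative. For the members named over all times as having 1 sign in 6 of 6 pairs or as farthest from 0 in their role, 851 alternative values kept sign and side of the threshold and 21, all paired with the offset, trend or median filter, moved an adjusted p under it. Sec31l1 on 1377087_at turned from 0.50 to -0.13 without the p25alpha array at 8 h of experiment 2, and to -0.010 with the replicate block as well, and leaving out single arrays gave -0.13 to 1.14. The count between experiments was 56 to 64 when single arrays were left out. At these signal levels, the 22 members not present on every array are the least certain.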
